A study of Mus musculus with 9 samples.

Results

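The non-claudin scaffold and membrane proteins of the apical junction were examined in mouse colon: Tjp1, Tjp3, Cgn, Ocln, Marveld2, Marveld3, F11r, Cdh1 and Ctnna1. They were found by symbol. All 9 were among the 54491 rows of the expression table, and all 9 were among the 17907 genes with enough signal to be tested. RNA sequencing was done on colon of C57BL/6 mice at postnatal day 98, in 3 groups of 3 libraries. The first group (HFD with P. cinnamivorans) had a high-fat diet together with gavage of Papillibacter cinnamivorans, a gut bacterium given through a feeding tube (replicates 1, 3 and 4). The second had the high-fat diet alone (HFD; replicates 1, 2 and 4), and the third was the control group (control; replicates 1, 2 and 3). In all, 45 mice of 6 weeks of age entered the study, 15 per group. Gavage is named for the bacterium group alone, so effects of the gavage and of the bacterium cannot be told apart. Neither the stretch of colon taken is given, nor whether the libraries came from different mice. P-values then measure only the spread between these libraries, which may be technical.

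Epithelial cells of the colon are sealed to their neighbours by a tight junction at the apical border and held together by an adherens junction below it. Claudins form the paracellular barrier strands, while scaffold proteins on the cytoplasmic side (ZO-1, ZO-3 and cingulin, encoded by Tjp1, Tjp3 and Cgn) tie the strands to actin and myosin. Occludin, tricellulin and MarvelD3 (Ocln, Marveld2 and Marveld3) are the junctional MARVEL proteins, with 4 membrane-spanning segments each, and tricellulin sits where 3 cells meet. JAM-A (F11r) is an immunoglobulin-fold adhesion molecule that recruits polarity proteins. E-cadherin (Cdh1) and alpha-catenin (Ctnna1) form the core of the adherens junction, in which alpha-catenin links the cadherin complex to actin.

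Several features of the libraries bear on these genes. Relative sequencing depth ranged from 0.822 to 1.103 of control replicate 1, and total depth is unknown. Mitochondrial transcripts made up 28.2% ± 6.62 of the summed FPKM in HFD with P. cinnamivorans, 11.6% ± 1.92 in HFD and 21.7% ± 4.53 in control (SD, n = 3 each). Smooth muscle transcripts summed over 12 genes stood at 7179 FPKM in control replicate 1, against 1377 to 3373 FPKM in the other 8 libraries. The sum of 18 pan-epithelial genes was 5469 to 6766 FPKM in HFD with P. cinnamivorans, 5797 to 6568 FPKM in HFD, and in control replicates 1, 2 and 3 it was 5833, 9649 and 11054 FPKM. All 10 B cell genes were called higher in HFD than in control, with sums of 103 to 132 FPKM in HFD and 3.05 to 16.0 FPKM in control. Of 9 posterior Hox genes 6 were called higher in HFD than in control, with sums of 283 to 304 FPKM in HFD and 11.4 to 71.9 FPKM in control. In HFD with P. cinnamivorans the B cell sums were 6.50 to 10.6 FPKM and the posterior Hox sums 26.1 to 33.9 FPKM. Against HFD, all 10 B cell genes and 5 of the 9 posterior Hox genes were called lower there. The 7 genes Hoxb2 to Hoxb8 summed to 4.64 to 5.51 FPKM in HFD. Their sums were 62.8 to 100 FPKM with the bacterium and 25.6 to 131 FPKM in control. The part of these shifts in the results below was not tested. Stratified squamous epithelium was near 0: its 10 genes summed to at most 2.61 FPKM in any library, and 2 of them were at 0 in all libraries. In bulk tissue, fewer cells of a type and less RNA per cell cannot be told apart.

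All 9 genes were well expressed. FPKM values are scaled by transcript length and can be compared between genes. Averaged over the 9 libraries, Cdh1 was the highest at 208 FPKM, above 98.8% of the tested genes. F11r (71.3 FPKM), Ctnna1 (70.4 FPKM) and Tjp3 (65.6 FPKM) followed, and their ranges overlapped in every group, so that these 3 were not separated by their spread. Ocln came next at 27.9 FPKM, below Tjp3 in all 9 libraries. Marveld3 (22 FPKM), Cgn (20.6 FPKM) and Tjp1 (16.7 FPKM) formed a lower tier whose order depended on the group: Marveld3 stood above Cgn in all HFD libraries and below it in all control libraries, and their ranges overlapped in HFD with P. cinnamivorans. Marveld2 was the lowest at 11.1 FPKM, below Tjp1 in all 9 libraries and above 75.1% of the tested genes. Among the scaffolds Tjp3 was thus more abundant than its paralogue Tjp1, with a Tjp1 to Tjp3 ratio of 0.213 to 0.313 over the 9 libraries.

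The spread within groups differed between genes. Marveld2 was the most variable in control, with a coefficient of variation of 7.57% in HFD with P. cinnamivorans, 5.75% in HFD and 37.8% in control. Ocln followed, with 13% in HFD with P. cinnamivorans, 5.44% in HFD and 29.6% in control. Control replicate 1 was the lowest library for both genes. It held 0.492 times the mean Marveld2 level of control replicates 2 and 3, and 0.566 times their mean Ocln level. For Tjp3, Ctnna1, Marveld3, Tjp1 and F11r the same ratio lay between 0.683 and 0.788, and for Cdh1 it was 0.903. Cgn was the exception at 1.05. Pooled over the groups, the standard deviation on the log2 scale ran from 0.11 for Cgn to 0.32 for Marveld2, around the median of 0.22 for the 4238 genes tested within the same range of levels.

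**Figure D1:**
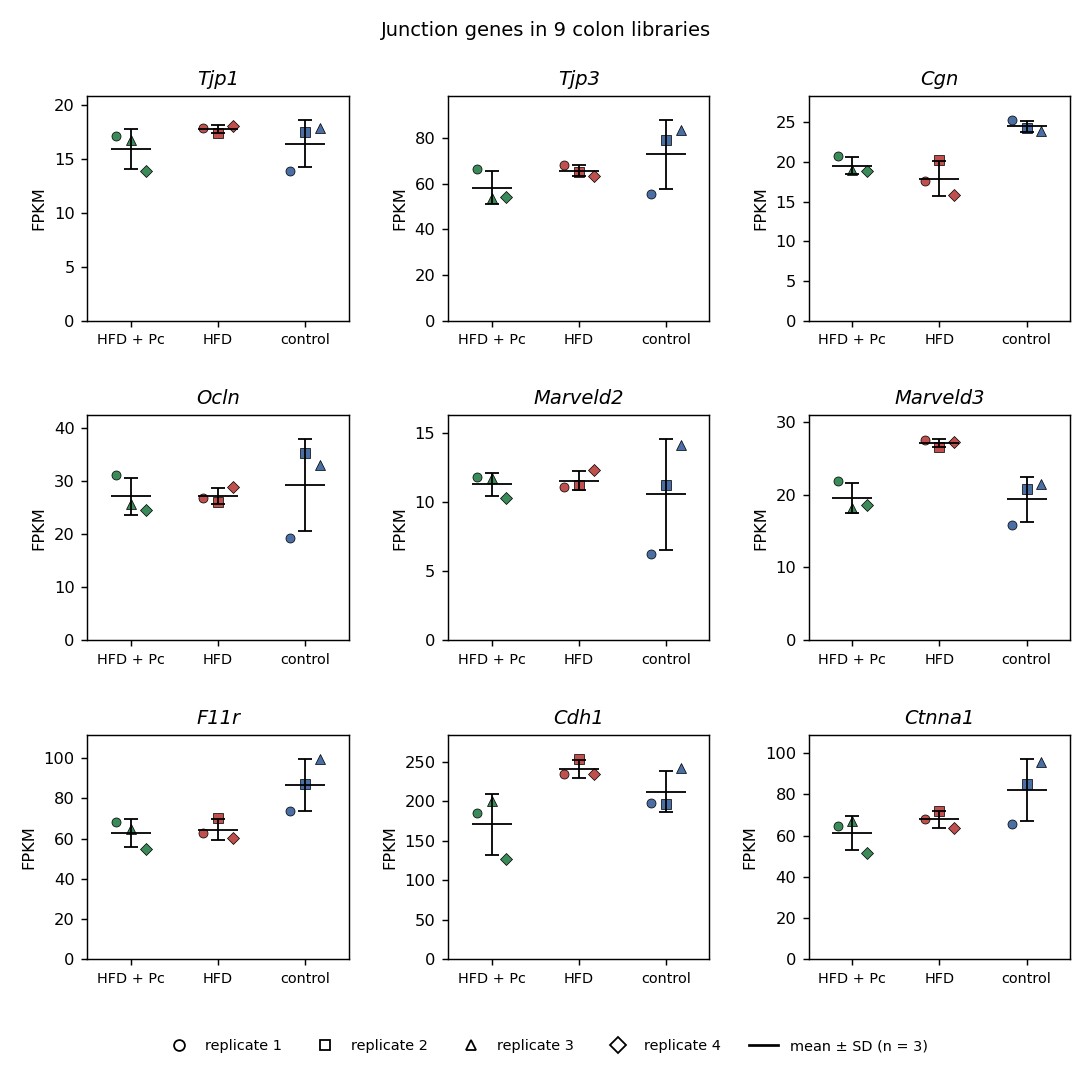
FPKM of the 9 junction genes in each colon library, with HFD + Pc for the high-fat diet with P. cinnamivorans, HFD for the diet alone and control; symbols mark replicate numbers, and horizontal lines with bars give the mean ± SD of 3 libraries. Marveld3 stood highest in the 3 HFD libraries (26.6 to 27.5 FPKM), Cgn and F11r stood highest in the 3 control libraries, and control replicate 1 was the lowest library for Ocln and Marveld2.

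HFD was first set against control, to ask how the junction genes differed with the diet. Cgn fell and Marveld3 rose in HFD colon (limma on log2(FPKM + 1), adjusted p below 0.05), and the other 7 genes did not pass. The 2 calls among 9 genes, 1 in each direction, stand beside 19.7% of all tested genes called in this comparison (10.6% higher and 9.11% lower), a share near that of the members. An unadjusted p below 0.05 was found for 3 of the 9 genes and for 34.7% of all tested genes. The median absolute log2 difference was 0.19 for the 9 genes and 0.30 for all tested genes.

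Cingulin binds ZO-1 and myosin at the junction. Cgn was at 17.6, 20.2 and 15.8 FPKM in HFD, against 25.3, 24.3 and 23.9 FPKM in control. The groups did not overlap, as was the case for 42.1% of all tested genes. The log2 difference was -0.44 (SE 0.12, 95% interval -0.70 to -0.18, limma adjusted p = 0.030), and the ratio of means was 0.729. Of the ZO scaffolds, Tjp1 was at 17.9, 17.4 and 18.1 FPKM in HFD against 13.9, 17.5 and 17.9 FPKM in control, and its log2 difference had an interval from -0.18 to 0.41. Tjp3 was at 68.3, 65.2 and 63.5 FPKM in HFD, against 55.6, 79.1 and 83.8 FPKM in control (interval -0.52 to 0.27). The HFD values of both lay within the span of the control values or barely beyond it.

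Among the MARVEL genes, Marveld3 passed the test and the other two did not. Marveld3 was at 27.5, 26.6 and 27.2 FPKM in HFD, against 15.8, 20.8 and 21.5 FPKM in control. The HFD libraries were all above the control libraries and differed among themselves by less than 1 FPKM. The log2 difference was 0.48 (SE 0.14, 95% interval 0.16 to 0.79, limma adjusted p = 0.043), a ratio of means of 1.40. Ocln encodes occludin, by which tight junctions are often followed, and was at 26.8, 26.0 and 28.9 FPKM in HFD, against 19.3, 35.4 and 33.0 FPKM in control. Its log2 difference of -0.06 had an interval from -0.54 to 0.43. Marveld2 was at 11.1, 11.2 and 12.3 FPKM in HFD, against 6.24, 11.2 and 14.1 FPKM in control, with an interval from -0.35 to 0.72. The HFD libraries of both genes lay inside the control range. The log2 difference of Marveld2 was 0.18, and -0.12 without control replicate 1, and that of Ocln was -0.32 without it. Neither passed.

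F11r was lower in every HFD library than in any control library, at 62.9, 70.2 and 60.5 FPKM in HFD against 73.5, 87.1 and 99.6 FPKM in control. The log2 difference of -0.41 (SE 0.15) did not pass after adjustment (limma adjusted p = 0.088), but did without control replicate 1 (-0.53, adjusted p = 0.026). Other scalings gave smaller differences: -0.14 with TPM (adjusted p = 0.50), -0.18 without mitochondrial and immunoglobulin genes (0.28), -0.23 with quantile normalization (0.18) and -0.12 centred on pan-epithelial genes (0.61). Relative to the median of all genes under each scaling, the F11r differences were -0.34, -0.34, -0.23 and -0.41 in the same order. The main fit gave -0.41 relative to its median. Cdh1 was at 235, 254 and 235 FPKM in HFD, against 198, 196 and 242 FPKM in control, an overlap of the groups with a log2 difference of 0.19 (interval -0.25 to 0.63). Ctnna1 was at 68.3, 72.0 and 63.5 FPKM in HFD, against 65.7, 85.1 and 95.7 FPKM in control (log2 difference -0.26, interval -0.64 to 0.13). The cadherin and its catenin partner thus had differences of opposite sign, neither of which passed.

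The calls for Cgn and Marveld3 were close to the threshold, and held under 10 and 11 of the 20 alternatives. For Cgn the call was lost without control replicate 2 (adjusted p = 0.082) or 3 (0.056) and without HFD replicate 1 (0.097) or 4 (0.12). For Marveld3 it was lost without control replicate 1 (0.052) or 2 (0.072), when any of HFD replicates 1 (0.12), 2 (0.10) and 4 (0.12) was left out, and when replicate 4 of HFD with P. cinnamivorans was (0.060). Scaling to TPM, which moved the median of all genes to 0.20, ended the call of Cgn (log2 difference -0.18, adjusted p = 0.38; -0.38 relative to that median), while Marveld3 was called (0.74, adjusted p = 0.0024). The Cgn call was also lost with quantile normalization (adjusted p = 0.081), without mitochondrial and immunoglobulin genes (0.27) and centred on pan-epithelial genes (0.66), and that of Marveld3 without a filter (0.058). With the 6 libraries of the comparison alone both were lost (Cgn 0.054, Marveld3 0.065). Tjp1 was called without mitochondrial and immunoglobulin genes (log2 difference 0.34, adjusted p = 0.048, and 0.18 relative to the median of all genes). Under TPM scaling the differences of Tjp3, Ocln and Ctnna1, none of which passed, were positive (0.15, 0.21 and 0.02). Relative to the median of all genes they were -0.05, 0.01 and -0.18.

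**Figure D2:**
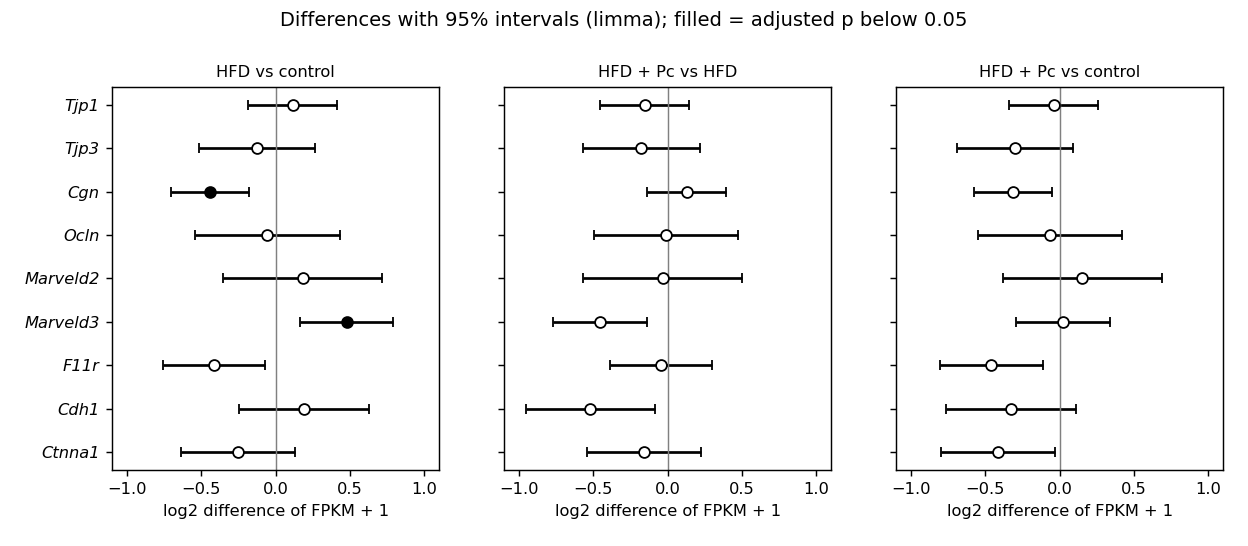
Log2 differences of FPKM + 1 with 95% intervals from the limma fit for the 9 junction genes in 3 comparisons, with filled points for an adjusted p below 0.05 and HFD + Pc for the high-fat diet with P. cinnamivorans. Cgn (-0.44) and Marveld3 (0.48) in HFD against control are the filled points, and no gene passed in the comparisons of HFD with P. cinnamivorans.

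Next, HFD with P. cinnamivorans was set against HFD, to ask what differed on the diet when the bacterium was given. This comparison shares the HFD libraries with the comparison above. None of the 9 genes passed in limma, where 12.1% of all tested genes were called (4.54% higher and 7.6% lower), and 2 of the 9 (Marveld3 and Cdh1) had an unadjusted p below 0.05, as had 26.8% of all tested genes. The log2 difference was negative for 8 of the 9 genes, with a median of -0.16 against -0.014 for all tested genes. The median absolute log2 difference was 0.16 for the 9 genes and 0.25 for all tested genes. Marveld3 was at 21.9, 18.2 and 18.5 FPKM with the bacterium and at 27.5, 26.6 and 27.2 FPKM in HFD. The groups did not overlap, as for 39% of all tested genes, and the log2 difference was -0.46 (SE 0.14, limma adjusted p = 0.067). Without control replicate 1, which enters the shared estimate of spread, the adjusted p of Marveld3 was 0.014, and with TPM scaling it was 0.0056. The difference under TPM scaling was -0.65, or -0.49 relative to the median of all genes, against -0.44 relative to the median in the main fit. Marveld3 passed under 5 of 20 alternatives, 1 of them among the 9 that leave out a library, and the adjusted p over all 20 ran from 0.0056 to 0.21.

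Cdh1 was at 186, 200 and 127 FPKM with the bacterium and at 235, 254 and 235 FPKM in HFD, again without overlap. The lowest of the 9 libraries was replicate 4 of HFD with P. cinnamivorans. The log2 difference was -0.52 (SE 0.19, interval -0.96 to -0.08), with a limma adjusted p of 0.12. Cdh1 passed under 2 of 20 alternatives, TPM scaling (-0.72, adjusted p = 0.042) and array weights. Relative to the median of all genes its difference was -0.56 under TPM scaling and -0.51 in the main fit. Without replicate 4 of HFD with P. cinnamivorans the difference was -0.32 (adjusted p = 0.31). Tjp1 also had groups that did not overlap, at 17.1, 16.8 and 13.8 FPKM with the bacterium and 17.9, 17.4 and 18.1 FPKM in HFD, but by a narrow margin (log2 difference -0.16, adjusted p = 0.50). For Ocln the 2 groups had almost the same mean, 27.1 ± 3.52 FPKM with the bacterium and 27.2 ± 1.48 FPKM in HFD (SD, n = 3 each), with an interval of the log2 difference from -0.50 to 0.48. Cgn measured 20.8, 19.0 and 18.8 FPKM with the bacterium, with a mean between those of HFD and control. Its log2 difference to HFD was 0.13 (interval -0.14 to 0.39). With TPM scaling it was -0.07, or 0.10 relative to the median of all genes. F11r was at 68.3, 64.8 and 54.8 FPKM with the bacterium, overlapping with HFD. Tjp3, Marveld2 and Ctnna1 had differences from -0.18 to -0.03, and their intervals all spanned 0.

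The diet and the bacterium together were then set against control. None of the 9 genes passed in limma, against a background of 1.11% of tested genes (0.262% higher and 0.843% lower), and 3 of the 9 (F11r, Cgn and Ctnna1) had an unadjusted p below 0.05, as had 20% of all tested genes. The log2 difference was negative for 7 of the 9 genes, with a median of -0.30 against -0.0099 for all tested genes. Here the median absolute log2 difference was larger for the 9 genes (0.30) than for all tested genes (0.21). F11r and Cgn were lower with the bacterium than in control without overlap of the groups, which held for 21.7% of all tested genes. F11r averaged 62.6 ± 7.00 FPKM with the bacterium and 86.7 ± 13 FPKM in control (SD, n = 3 each), a log2 difference of -0.46 (limma adjusted p = 0.14). Without control replicate 1 the F11r difference was -0.57 and passed (adjusted p = 0.049). Cgn averaged 19.5 ± 1.08 FPKM with the bacterium and 24.5 ± 0.716 FPKM in control (log2 difference -0.31, adjusted p = 0.19). Ctnna1 averaged 61.1 ± 8.2 FPKM with the bacterium and 82.1 ± 15.2 FPKM in control, with overlapping groups (log2 difference -0.41, adjusted p = 0.22). Marveld3 had nearly equal means of 19.5 ± 2.02 FPKM with the bacterium and 19.4 ± 3.12 FPKM in control and an interval of the log2 difference from -0.30 to 0.34.

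Cgn and F11r, the genes whose control libraries were the highest, were examined for the sequence upstream of their start, with Tjp1, whose level differed little, beside them. Windows of RefSeq sequence (GRCm38.p6) were read for 6 of the 9 genes, while the deposited values were made on GRCm39. The other genes were not read, which says nothing of whether RefSeq holds their sequence. The 250 bases before the start are given 5′ to 3′ on the strand of the gene, and capitals mark CCAAT or its reverse complement ATTGG.
Cgn, chr3:94786483-94786732, minus strand: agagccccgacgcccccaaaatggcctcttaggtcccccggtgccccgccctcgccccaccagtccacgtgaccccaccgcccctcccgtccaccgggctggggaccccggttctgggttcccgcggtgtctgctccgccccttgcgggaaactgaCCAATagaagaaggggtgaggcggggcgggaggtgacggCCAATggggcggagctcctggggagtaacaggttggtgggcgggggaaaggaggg
F11r, chr1:171437311-171437560, plus strand: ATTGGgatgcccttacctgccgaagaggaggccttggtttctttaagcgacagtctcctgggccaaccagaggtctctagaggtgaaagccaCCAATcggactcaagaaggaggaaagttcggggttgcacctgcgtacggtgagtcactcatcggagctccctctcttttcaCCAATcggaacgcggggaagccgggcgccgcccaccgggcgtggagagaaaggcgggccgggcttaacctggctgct
Tjp1, chr7:65371245-65371494, minus strand: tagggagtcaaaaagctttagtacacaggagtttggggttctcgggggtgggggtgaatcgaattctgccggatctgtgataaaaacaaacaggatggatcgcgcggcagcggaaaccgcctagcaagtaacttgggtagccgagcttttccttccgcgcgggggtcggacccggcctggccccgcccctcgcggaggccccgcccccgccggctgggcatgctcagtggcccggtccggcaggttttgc
CCAAT stood 2 times in the Cgn window, 3 times in the F11r window and not in the Tjp1 window. On both strands, 10.1% of all 32851 RefSeq windows of this length held it at least 2 times and 2.79% at least 3 times. The GC box GGGCGG, which Sp-family factors bind, stood 6 times in the Cgn window (overlapping copies counted), 1 time in that of F11r and 2 times in that of Tjp1, and 32.7% of all windows held at least 1 and 4.09% at least 4. The E-box CAGGTG, a motif bound by Snail and ZEB repressors, stood 1 time in the F11r window and in neither of the others (17.2% of all windows), and TATAAA was in none of these 3 windows (12.4% of all windows). The GC content was 70.4% for Cgn, 60% for F11r and 63.2% for Tjp1, against a median of 52.4%. Of the 6 genes read only Cgn was called, and no window was read for the other called gene, Marveld3. Called and uncalled genes were thus not compared. The other 3 genes read, Tjp3, Ocln and Marveld2, have 2 windows each. CCAAT stood 1 time in 1 window of Tjp3 and in 1 of Ocln and in neither of Marveld2. The 2 Marveld2 windows overlap, and TATAAA stood at 1 site that lies in both. CAGGTG stood 1 time in both Tjp3 windows, 2 times in 1 window of Ocln and in neither of Marveld2. Of all windows, 2.06% held it at least 2 times, so the motif was not particular to F11r. The 3 genes shown were picked with their values known. A match describes letters in a window, and binding was not measured.

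Ratios between 2 junction genes of the same library do not depend on how the library was scaled. Of the 36 ratios among the 9 genes, 17 did not overlap between HFD and control, 17 between HFD with P. cinnamivorans and HFD, and 12 between HFD with P. cinnamivorans and control. Over all pairs of tested genes the shares without overlap were 43.1%, 41.5% and 20.3% in the same order of comparisons. The 36 ratios share genes and are not independent. The ratios described here were picked after their values were seen and carry no test.

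The ratio of F11r to Marveld3 was 3.12, 3.56 and 2.96 in HFD with P. cinnamivorans, 2.28, 2.65 and 2.22 in HFD, and 4.66, 4.19 and 4.63 in control. The 3 groups were fully separate, with HFD lowest. Cgn to Marveld3 had the same order, at 0.950, 1.04 and 1.02 in HFD with P. cinnamivorans, 0.638, 0.760 and 0.580 in HFD, and 1.60, 1.17 and 1.11 in control. Control replicate 1 was the highest library for both of these ratios.

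In the adherens junction, Cdh1 to Ctnna1 was 2.87, 2.99 and 2.46 in HFD with P. cinnamivorans, 3.44, 3.53 and 3.70 in HFD, and 3.01, 2.30 and 2.53 in control. The HFD libraries had more cadherin transcript per catenin transcript than all 6 other libraries. F11r to Cdh1 ran the other way, at 0.368, 0.324 and 0.431 in HFD with P. cinnamivorans, 0.268, 0.276 and 0.258 in HFD and 0.371, 0.444 and 0.411 in control. Between the ZO paralogues, Tjp1 to Tjp3 averaged 0.275 ± 0.0330 in HFD with P. cinnamivorans, 0.271 ± 0.0120 in HFD and 0.228 ± 0.0195 in control (SD, n = 3 each). Ocln and Marveld2 are neighbours on chromosome 13, with 0 protein-coding genes between them in GENCODE M21. Their ratio was 2.41 ± 0.229 in HFD with P. cinnamivorans, 2.36 ± 0.0548 in HFD and 2.86 ± 0.457 in control (SD, n = 3 each), and the groups overlapped.

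**Figure D3:**
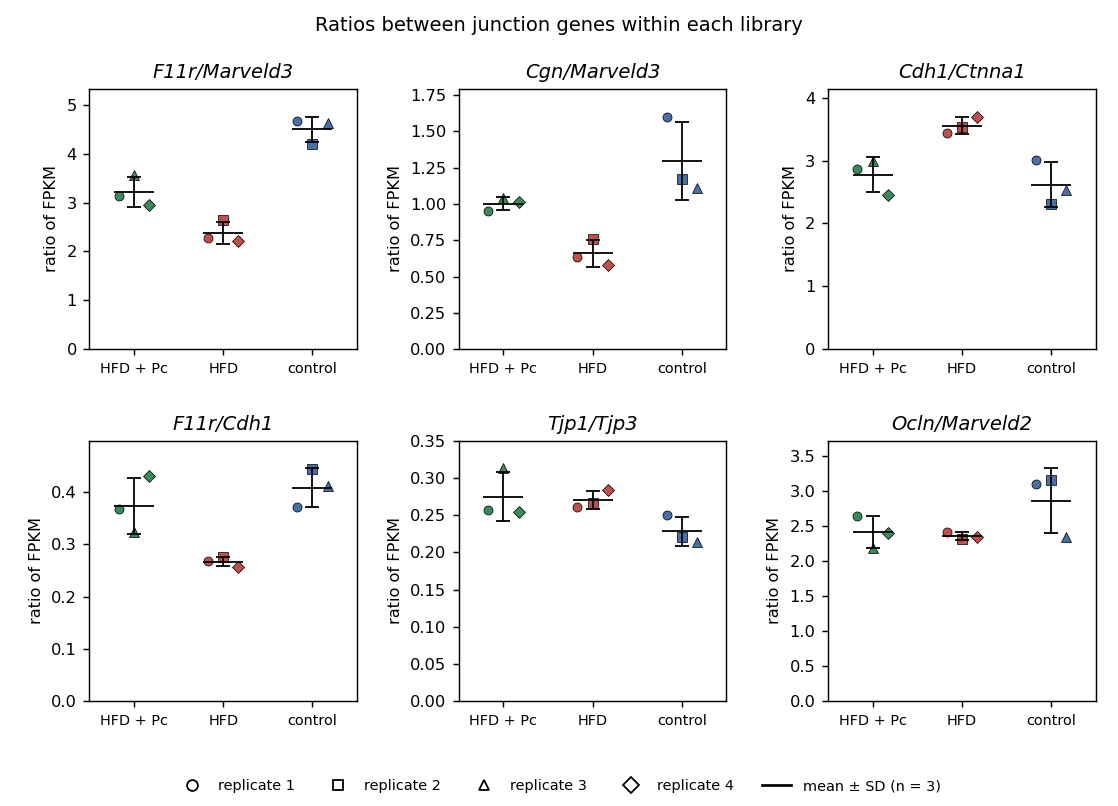
Ratios of FPKM between junction genes within each library, in HFD with P. cinnamivorans (HFD + Pc), HFD and control; symbols mark replicate numbers and lines with bars the mean ± SD of 3 libraries. F11r to Marveld3 separates all 3 groups (lowest in HFD, 2.22 to 2.65), Cdh1 to Ctnna1 is highest in HFD (3.44 to 3.70), and Ocln to Marveld2 overlaps between groups.

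The proteins of this set are parts of epithelial junctions, and pan-epithelial transcripts themselves differed between libraries. Which cells of the colon made the transcripts of the 9 genes was not measured. In HFD against control the median log2 difference of the 17 tested pan-epithelial genes was -0.35, with 2 called higher and 2 lower. Krt20, a keratin of differentiated surface cells, was at 184 ± 21.8 FPKM in HFD against 903 ± 157 FPKM in control, and Vil1, the microvillus protein villin, at 116 ± 5.11 against 218 ± 49.9 FPKM, whereas the protease gene Tmprss2 was at 71.5 ± 4.32 against 23.0 ± 8.50 FPKM (SD, n = 3 each). Subtracting the mean log2 level of this list moves all genes of a library by the same amount, and moved the median of all tested genes to 0.29 for HFD against control. On that scale, 7 of the 9 junction genes had a positive difference of HFD to control, with a median of 0.24 and a range from -0.17 to 0.79. For 5 of them (Tjp1, Tjp3, Marveld2, Marveld3 and Cdh1) the HFD libraries were all above the control libraries, with the smallest p that an exact two-sided permutation test of 3 against 3 libraries can give, 0.10. The same held for 29.1% of all tested genes on that scale, and 9.33% were lower without overlap. Marveld3 had the largest difference (0.79), followed by Marveld2 (0.50) and Cdh1 (0.49). Cgn was at -0.17 with overlapping groups.

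With the bacterium against HFD, the same quantity had a median of -0.10 over the 9 genes. Marveld3 (-0.42) and Cdh1 (-0.46) were lower with the bacterium in all libraries (exact two-sided permutation p = 0.10 each, the smallest possible), as were 16.5% of all tested genes, while 19.4% were higher. With Epcam alone as the denominator the median was 0.12, Cdh1 was at -0.25 without overlap, and Marveld3 was at -0.20 with overlapping groups (exact permutation p = 0.50). The other 7 differences were positive on that scale. Cgn (0.41) and F11r (0.23) were higher with the bacterium without overlap (exact permutation p = 0.10 each). The share of all tested genes without overlap was not computed for the Epcam scale. Epcam was at 562, 626 and 419 FPKM with the bacterium and at 634, 690 and 598 FPKM in HFD. Its level moves all genes of a library by the same amount. Against control, HFD with P. cinnamivorans had a median of 0.05 on the scale of the pan-epithelial list. Tjp1 (0.31), Marveld2 (0.53) and Marveld3 (0.38) were higher in all libraries, as were 19.4% of all tested genes, while 2.7% were lower. The median was 0.22 without control replicate 1, and 0.31 with Epcam as the denominator.

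**Figure D4:**
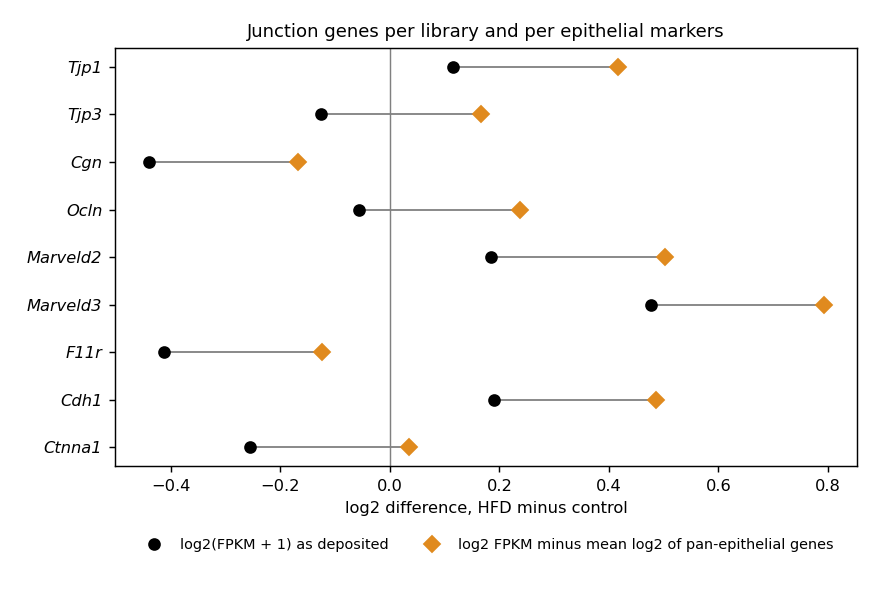
Log2 difference of HFD minus control for each junction gene, from log2(FPKM + 1) as deposited (circles) and from log2 FPKM after subtraction of the mean log2 level of the pan-epithelial genes in the same library (diamonds). The subtraction moves all genes by nearly the same amount, and the order of the genes runs from Marveld3 at 0.79 to Cgn at -0.17.

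Other genes of the junction were read from the same fit. The counts per list that follow stand beside 19.7% of all tested genes called in HFD against control (10.6% higher and 9.11% lower). For HFD with P. cinnamivorans against HFD the share was 12.1% (4.54% higher and 7.6% lower). Whether a list differed from these shares was not tested. Of 20 tested tight junction plaque and polarity genes, 2 were called in HFD against control, both lower (median log2 difference of the 20 genes -0.16). Pard6b, a polarity adaptor of the Par complex, fell to 5.92 ± 0.819 FPKM in HFD, against 16.5 ± 0.662 FPKM in control (limma adjusted p = 0.00023), a log2 difference of -1.35. It was also called lower with the bacterium than in control, at 8.18 ± 0.683 FPKM (adjusted p = 0.036). Crb3, an apical polarity protein, was at 27.0 ± 2.33 against 49.0 ± 7.91 FPKM (adjusted p = 0.0059). With the bacterium against HFD, 0 of these 20 genes were called.

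Of 9 tested immunoglobulin-fold and tricellular genes, 2 were called in HFD against control, both higher, while the median log2 difference was -0.22. Jaml, an adhesion molecule of leukocytes, was at 2.57 ± 0.669 FPKM in HFD, against 1.33 ± 0.214 FPKM in control (adjusted p = 0.027). Lsr, an angulin that recruits tricellulin to tricellular contacts, was at 21.8, 20.8 and 23.1 FPKM in HFD, against 3.28, 5.92 and 3.65 FPKM in control, a log2 difference of 2.15 (SE 0.58, limma adjusted p = 0.032). With the bacterium it was at 0.824, 11.3 and 2.25 FPKM, below HFD in all libraries (log2 difference -2.45, adjusted p = 0.026). The spread of Lsr with the bacterium was wide, and replicate 3 stood apart. Ildr1, a more abundant gene of this list, had differences of the opposite sign and was not called. It was at 36.8 ± 2.37 FPKM in HFD and 66.7 ± 30.0 FPKM in control (log2 difference -0.73, limma adjusted p = 0.13). With the bacterium Ildr1 was at 56.8 ± 2.57 FPKM (log2 difference to HFD 0.62, limma adjusted p = 0.24). Tricellulin itself, Marveld2, did not pass in either comparison.

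Of 18 tested adherens junction genes, HFD had 1 called higher and 2 called lower against control. Ctnnd1, the p120-catenin that stabilises cadherins at the membrane, was at 10.4 ± 0.831 FPKM in HFD and 17.3 ± 2.55 FPKM in control (adjusted p = 0.0089). Nectin2 was at 20.9 ± 1.09 against 31.8 ± 2.32 FPKM (adjusted p = 0.0092). Ctnnb1, which encodes beta-catenin and was not called, ranged from 70.2 to 76.6 FPKM in HFD and from 68.8 to 124 FPKM in control. With the bacterium against HFD, 1 of these genes was called higher and 2 lower, the higher one being Nectin1 at 2.51 ± 0.0963 against 1.62 ± 0.166 FPKM (adjusted p = 0.032). The lower ones were Nectin4 at 0.299 ± 0.0483 against 1.29 ± 0.30 FPKM (adjusted p = 0.019) and Lima1, an actin-binding partner of alpha-catenin, at 17.9 ± 5.25 against 29.0 ± 1.0 FPKM (adjusted p = 0.048). Of 9 tested desmosome genes, 3 were called lower in HFD than in control, all of them plakophilins. Pkp3 was at 18.0 ± 1.56 against 33.3 ± 5.88 FPKM, Pkp4 at 9.39 ± 0.263 against 15.4 ± 1.51 FPKM and Pkp2 at 10.04 ± 0.588 against 13.9 ± 0.742 FPKM. With the bacterium Pkp4 (16.0 ± 0.951 FPKM) and Pkp2 (14 ± 1.2 FPKM) were called higher than in HFD.

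Of 11 tested claudins, HFD had 3 called higher and 4 called lower against control. Cldn8 was at 67.2 ± 5.51 FPKM in HFD, against 8.10 ± 2.69 FPKM in control, and Cldn4 at 13.8 ± 3.02 against 73.3 ± 24.6 FPKM. Of 20 tested repressors of Cdh1 and activators of the epithelial programme, 2 were called higher and 3 lower. Cdx2, an intestinal homeobox factor, was at 8.10 ± 1.40 FPKM in HFD against 112 ± 34.8 FPKM in control (adjusted p = 7.9e-05). Ehf, an epithelial ETS factor, was at 71.2 ± 6.05 FPKM in HFD, against 42.7 ± 4.06 FPKM in control (adjusted p = 0.022), and Cdh1 itself was not called. Of 10 tested proteases and inhibitors, 1 was called higher and 1 lower; St14, the membrane protease matriptase, was at 28.5 ± 4.62 against 61.3 ± 2.69 FPKM (adjusted p = 0.0039). Values after ± are SD over 3 libraries.

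**Figure D5:**
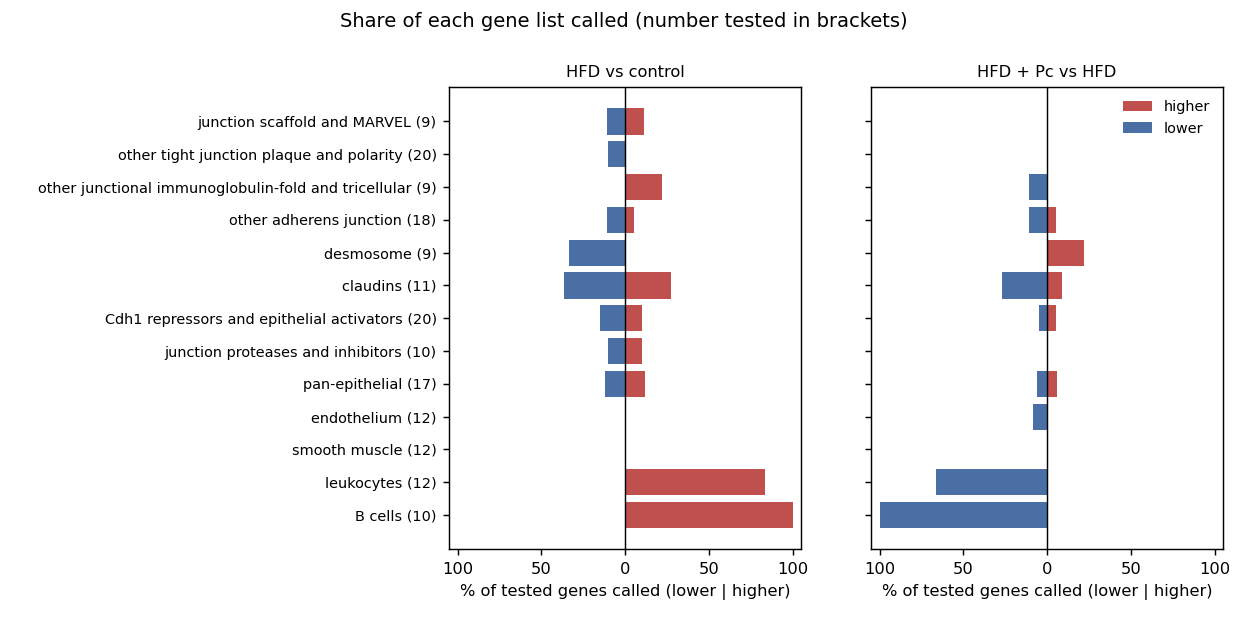
Share of the tested genes of each list called higher (right, red) or lower (left, blue) at a limma adjusted p below 0.05, for HFD against control and for HFD with P. cinnamivorans (HFD + Pc) against HFD; numbers of tested genes are in brackets. The 9 junction genes had 1 called in each direction against control and 0 against HFD, while all 10 B cell genes were called in each comparison. Of all tested genes, 19.7% were called in HFD against control and 12.1% in HFD + Pc against HFD.

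The genes whose levels followed each junction gene most closely over the 9 libraries were taken from 7227 genes with a mean of at least 5 FPKM, by Pearson correlation of log2(FPKM + 1). The libraries share group and tissue composition, so these values describe the pattern and carry no p. Ctnna1 ran closest to Epcam, the epithelial adhesion molecule (r = 0.994), which was at 562, 626 and 419 FPKM in HFD with P. cinnamivorans, 634, 690 and 598 FPKM in HFD, against 580, 897 and 1029 FPKM in control. Marveld2 ran closest to Ttc38 (r = 0.993) and Marveld3 to Tlr1 (r = 0.985), a receptor of bacterial lipopeptides. Tlr1 was at 25.1, 20.7 and 21.7 FPKM in HFD with P. cinnamivorans, 38.5, 38.4 and 40.2 FPKM in HFD, against 15.1, 22 and 25.7 FPKM in control, the same high HFD libraries as Marveld3. The closest genes were Ccndbp1 for Tjp3 (0.980), Mbd2 for F11r (0.976), Snf8 for Cgn (0.972), Cmas for Cdh1 (0.962), Arap2 for Tjp1 (0.955) and Mpc2 for Ocln (0.913). Tjp1 was also close to Magi3, a junctional scaffold with PDZ domains (0.948).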

How the data were processed

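RNA of 9 colon libraries was read from 1 table of FPKM values deposited by the authors (fragments scaled by gene length and by library size). Alignment was with HISAT2 2.0.5 to GRCm39, per the submitters' processing notes; how fragments were counted, and on which strand, is not given in the sources used here. Symbols came from GENCODE M21 for 52093 of the 54491 identifiers. Igsf5 matched 2 identifiers and was left out, and Cldn25 matched none. Some genes and gene lists are not reported here.

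A filter of 0.5 FPKM in 3 or more libraries left 17907 genes. These were fitted with limma (version 3.58.1, R 4.3.3) as log2(FPKM + 1), which understates changes of low genes, with a variance trend and all 9 libraries in 1 model. Calls were made at a Benjamini-Hochberg adjusted p under 0.05 over all 17907 genes. Members, lists and tests were chosen with earlier results of these data known. Other genes were named by a rule: called genes from among the 3 with the smallest p per list and comparison, at most 1 gene not called, and the genes closest to a member by correlation. Tjp3 and Ctnna1 share 1.08% and 1.48% of their exonic length with a gene on the opposite strand.

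Depth is unknown beyond the ratios read from low values, so no counting intervals are given. No 2 libraries held identical values, and correlations within groups were 0.928 to 0.978. The alternatives were a pseudocount of 0.1, no filter, a mean of at least 1 FPKM, TPM scaling, quantile normalization, removal of mitochondrial and immunoglobulin genes, centring on pan-epithelial genes, no trend, array weights (gene-by-gene method, since the default did not converge), the 6 libraries of a comparison, a replicate block and leaving out each library.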

Additional observations from a re-analysis of the deposited data

How the results depend on the processing

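Over 540 member values under the alternatives, 49 changed sign, 0 of them past the threshold; 15 passed only under the alternative and 19 only as reported. Members called in HFD against control were 2, and 1 without a filter, with TPM scaling, with quantile normalization or centred on pan-epithelial genes, 2 without mitochondrial and immunoglobulin genes (Tjp1 and Marveld3, not Cgn), 5 with array weights, 0 with the replicate block or the 6 libraries of the comparison, and 0 to 2 leaving out a library. For HFD with P. cinnamivorans against HFD they were 0, and 2 with TPM scaling or array weights, 1 without mitochondrial and immunoglobulin genes or with its 6 libraries, and 0 to 1 leaving out a library. Against control they were 0, and 2 with array weights and 0 to 1 leaving out a library. The causes were not tested.

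All genes called in HFD against control numbered 3535, and 7934 with array weights, 1985 with the replicate block and 1857 (without HFD replicate 4) to 4521 (without control replicate 1) leaving out a library. For HFD with P. cinnamivorans against HFD they numbered 2174, and 1203 centred on pan-epithelial genes, 4626 with array weights, 1288 with the block and 1161 to 3588 leaving out a library. Against control they numbered 198, and 15 without a filter, 309 with a mean of at least 1 FPKM, 22 with TPM scaling, 46 with quantile normalization, 380 without mitochondrial and immunoglobulin genes, 11 centred on pan-epithelial genes, 2393 with array weights, 0 with the block, 2 with its 6 libraries and 0 to 1186 leaving out a library. The share of called genes that were higher in HFD than in control was 53.8%, and 78.8% with TPM scaling, 76.5% without mitochondrial and immunoglobulin genes and 80.9% centred on pan-epithelial genes. For HFD with P. cinnamivorans against HFD it was 37.4%, and 23.9% with TPM scaling and 50% centred on pan-epithelial genes. Against control it was 23.7%, and 76.8% without mitochondrial and immunoglobulin genes, 45.5% with TPM scaling and 81.8% centred on pan-epithelial genes.

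The median member to pan-epithelial difference was 0.18 to 0.35 leaving out a library for HFD against control and -0.10 to -0.02 for HFD with P. cinnamivorans against HFD, where Epcam alone gave 0.12. Against control it was 0.0012 to 0.22, where Epcam gave 0.31. Same-numbered libraries did not deviate together (correlations -0.156 to 0.187), so the numbers were not taken to pair libraries, and the replicate block ended the calls of Cgn (adjusted p = 0.097) and Marveld3 (0.13). Standard errors of 0.12 to 0.24 on the log2 scale limit what can be told of the smaller differences of the members.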
